A study of Mus musculus with 21 samples.

Results

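The comparison described here set the spinal cord of mice lacking TDP-43 in oligodendrocytes against that of control mice at about postnatal day 60 (P60). It used 6 of the 21 libraries of the study, 3 of knockout (cKO) cord and 3 of control cord, and 16833 of 25127 measured genes, namely those that reached 5 normalized scaled reads per base in at least 3 of the 9 P60 libraries. All mice were C57BL/6. The P60 controls carried the floxed Tardbp-fl/fl alleles without Cre, were labelled female and were 74 days old. The P60 cKO mice carried Cnp-Cre and Tardbp-fl/fl, were labelled male, and were 61, 61 and 64 days old. Heterozygous (cHET) males of 65, 63 and 60 days with Cnp-Cre and Tardbp-fl/+ entered the same fit, and 12 libraries of day 21 (P21) mice, 4 of each genotype with both sexes, were set beside it. Mouse numbers in the labels differ between all libraries, which makes every replicate another animal. RNA came from flash frozen spinal cord as a whole tissue, so that fewer cells of a type and less RNA per cell cannot be told apart in any value below. The labelled age and sex both differ between P60 control and cKO mice, and neither can be told apart from the genotype within these 6 libraries. Controls carry no Cre, so that Cnp-Cre itself and the deletion cannot be told apart against control, whereas cHET mice carry Cnp-Cre too.

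TDP-43, encoded by Tardbp, is a nuclear RNA-binding protein that regulates splicing and RNA stability, and its loss from the nucleus is a hallmark of amyotrophic lateral sclerosis and frontotemporal dementia. Oligodendrocytes wrap axons in myelin, a membrane unusually rich in cholesterol that these cells largely make themselves. Sterol synthesis is switched on by SREBP-2, a transcription factor encoded by Srebf2, which leaves the endoplasmic reticulum when membrane sterol is low, whereas sterol surplus acts through LXR receptors to raise export genes such as Abca1 and Apoe. Cnp-Cre, commonly an insertion into the Cnp gene, drives recombination in cells of the oligodendrocyte lineage, and microglia and astrocytes, the other glia of the cord, clear myelin debris and respond to injury.

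In each P60 library 19645 to 20138 genes had a value above 0, and the number of reads behind these normalized values is unknown. Log2 values correlated across genes at 0.972 to 0.976 among controls, 0.972 to 0.977 among cKO libraries and 0.940 to 0.949 between them. Genes of the mitochondrial genome took 17.8%, 17.9% and 14.6% of the values in cKO and 16.1%, 10.2% and 13.1% in control libraries, a difference smaller than the spread could resolve (exact permutation test, 2-sided, p = 0.2, where 0.1 is the smallest value that 3 against 3 allow). Defining genes of the cord's neurons and glia, such as Snap25, Mbp and Gfap, were abundant in every P60 library. Y-linked genes went against the labelled sex of the P60 controls. Ddx3y, a Y-linked RNA helicase, was 859 to 1113 in the 3 libraries labelled control and female, 886 to 1056 in cKO and 970 to 1166 in cHET libraries, whereas at P21 it was 17.0 to 123 in libraries labelled female and 2401 to 2630 in those labelled male. Uty, Kdm5d and Eif2s3y are also Y-linked. Uty was 285 to 310 in P60 controls and 299 to 361 in cKO libraries, against 55.8 to 95.9 and 767 to 1004 in P21 libraries labelled female and male. Kdm5d was 388 to 468 in controls and 479 to 533 in cKO libraries, and Eif2s3y 155 to 229 and 298 to 313, and of 8 tested sex-linked genes Eif2s3y passed (0.64, adjusted p = 0.015). The levels of these genes in all 9 P60 libraries lay above the P21 libraries labelled female, although the deposited values were scaled apart at each age. The libraries are called control and cKO by their labels throughout. The effect of sex itself was measured at P21, where 9 of 17989 genes (0.05%) differed between labelled males and females. None of the 151 genes named here by rule was among them. The naming rule left out genes listed as sex-linked and, for the largest changes, clone-type symbols, and most of the 9 were of these kinds. Their absence therefore does not measure the effect of sex on the named genes.

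**Figure D1:**
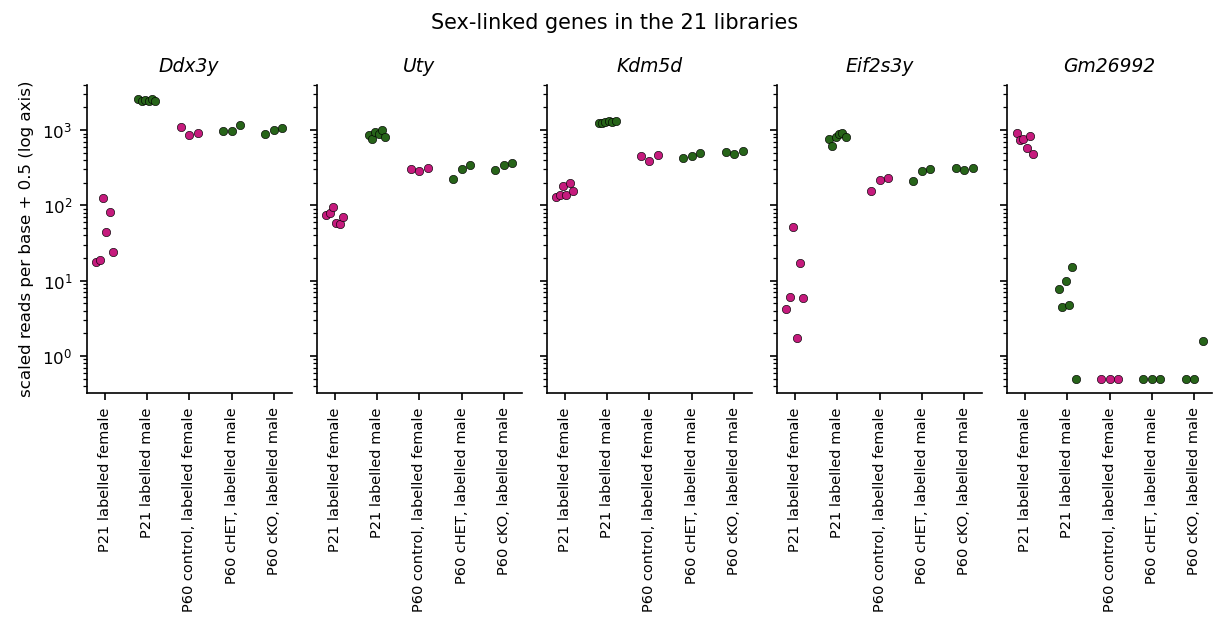
Values of 4 Y-linked genes and of Gm26992, a gene opposite Xist on the X chromosome, in the 21 libraries, as normalized scaled reads per base plus 0.5 on a log axis, 1 point per library. The 3 P60 controls labelled female lie nearer the P60 males than the P21 females for each Y-linked gene, with Ddx3y at 859 to 1113 and Eif2s3y at 155 to 229 against 298 to 313 in cKO, and Gm26992 was at 0 in all 3 of them, in P60 libraries made with another kit than the P21 libraries.

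Levels are given as normalized scaled reads per base, and changes as log2 differences of cKO minus control on the log2(value + 0.5) scale, tested with limma over all genes with Benjamini-Hochberg adjustment and called at an adjusted p under 0.05. The targeted gene was examined in every library first. Tardbp (GRCm38 chromosome 4, 148612382 to 148627019, minus strand) was 828, 884 and 937 in control, 925, 932 and 906 in cHET and 831, 794 and 783 in cKO libraries. The lowest control and the highest cKO library overlapped, and the log2 change of -0.14 ± 0.06 (SE) did not pass (adjusted p = 0.14). Against cHET, Tardbp fell by 0.20 (adjusted p = 0.04). Gene-level values of the whole cord do not resolve the floxed part of the gene or the cells in which it was deleted. Cnp (chromosome 11, 100574904 to 100591729, plus strand), the myelin enzyme gene that drives Cre, was 14546, 15474 and 15611 in control, 8720.2, 8892 and 8877 in cHET and 10696, 12119 and 11282 in cKO libraries. Both groups with Cnp-Cre lay below every control, cKO by 0.42 ± 0.06 (adjusted p = 3.8e-04) and cHET by 0.78 (adjusted p = 0.0011).

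Of 16833 genes, 4360 (25.9%) passed an adjusted p of 0.05 in cKO against control cord, 2435 up (14.5%) and 1925 down (11.4%). At least 2-fold, 923 genes rose and 287 fell. The upward share was 55.8%, but 45.2% after quantile normalization (2160 up, 2620 down), which moved the median of all genes from 0.00 to -0.07 on the log2 scale. The cKO and control libraries did not overlap for 6862 genes (40.8%). These shares of all tested genes, 25.9% called and 40.8% without overlap, are the background for the counts of list members below. The authors' deposited table holds 16928 genes for this comparison, with 4545 at q under 0.05 (2511 up, 2034 down), and it calls 93.4% of the genes called here that it holds. In the same fit, cKO against cHET gave 4200 calls (25%), and cHET against control gave 3 (0.0178%), with 912 genes at an unadjusted p under 0.05. Those 3 were Cnp, Bcas1, an oligodendrocyte gene that was 0.53 higher on the log2 scale, and the ubiquitin ligase gene Hectd4, named after its value was seen, at 0.58. These contrasts share libraries with the main one, and their values are given side by side only.

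**Figure D2:**
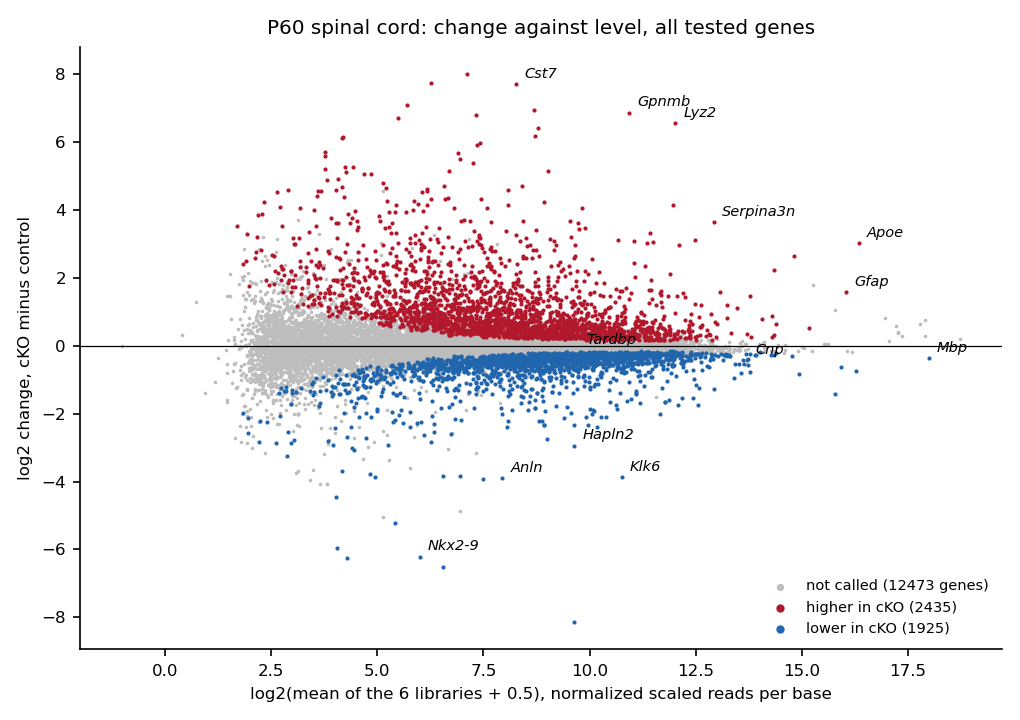
Log2 change of P60 cKO minus control cord (vertical axis) against the log2 mean of the 6 libraries plus 0.5, in normalized scaled reads per base (horizontal axis), for all 16833 tested genes. The 2435 genes higher and 1925 lower in cKO spread over the whole range of levels, with Cst7 at 7.72 and Nkx2-9 at -6.21.

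Transcripts of cholesterol synthesis enzymes fell across the whole list. All 20 tested genes of the cholesterol biosynthesis list were lower in cKO cord than in every control library. Over all tested genes, cKO and control libraries did not overlap for 40.8%. All 20 passed, with a median log2 change of -1.61 against 0.00 over all tested genes and 25.9% of them called. The list was chosen with earlier results of these data known. Because the genes moved together, the promoters of the list were read for TCACNCCAC, a pattern of the sterol response element type. It lay on either strand in 1 of 18 promoters of 15 list genes found in the RefSeq table of GRCm38.p6, and in 1.24% of 32851 promoters of the same length. The promoter with the match is that of Hmgcs1, at chr13:119690101-119690400 on the plus strand, shown 5′ to 3′ from 250 bases before to 50 after the start, with the match in capitals 137 bases before the start.
Hmgcs1: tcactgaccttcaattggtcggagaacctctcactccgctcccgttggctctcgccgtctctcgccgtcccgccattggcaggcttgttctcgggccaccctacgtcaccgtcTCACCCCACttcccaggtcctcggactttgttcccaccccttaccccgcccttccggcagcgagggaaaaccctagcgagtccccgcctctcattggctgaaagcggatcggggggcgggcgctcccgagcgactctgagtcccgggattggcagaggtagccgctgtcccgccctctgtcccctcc
The match is a description of letters, and no binding was measured here.

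The first enzymes of the pathway build mevalonate from acetyl-CoA. Hmgcs1, cytosolic HMG-CoA synthase, was 9570.5, 8981 and 9112 in control, 9376, 10729 and 11300.4 in cHET and 2505, 2946 and 2773 in cKO libraries. It fell by 1.75 ± 0.08 (adjusted p = 9.7e-08), to 0.297 of the control mean. The per-library values of Hmgcs1 do not give the mean in the authors' deposited table, which gives a change of -1.73. For Hmgcs1 all 3 cKO libraries lay far below the range of the controls. Acat2, which joins 2 acetyl-CoA, fell by 0.86. Mvk (-1.19), Pmvk (-0.50) and Mvd (-1.66), which turn mevalonate into the isoprene unit, all passed, as did Idi1 (-1.89) and Fdps (-1.80), which join these units into farnesyl diphosphate.

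From squalene onward the values fell as far. Fdft1, squalene synthase, was 1682, 1718 and 1682 in controls and 393, 412 and 466 in cKO libraries and fell by 2.002 ± 0.07 (adjusted p = 2.2e-08). For Fdft1 too the per-library values differ from the authors' deposited table, which gives -1.97. Sqle, squalene epoxidase and a rate-limiting step, went from 2492, 2565 and 2534 to 669.9, 663 and 746, with cHET libraries at 2519.8, 2680.4 and 2434. It fell by 1.87 ± 0.06 (adjusted p = 2.1e-08), and the cHET libraries overlapped the controls. Msmo1, a sterol methyl oxidase, had the lowest change of the list at -2.09 ± 0.08 (adjusted p = 3.1e-08), from 2158, 2224 and 2094 in controls to 477, 526 and 521 in cKO libraries. Lss, the cyclase that closes the sterol rings, varied among cKO libraries, at 297, 448 and 522 against 954, 999.5 and 927 in controls, and still passed (-1.22, adjusted p = 8.3e-04). Cyp51 (-1.605), Nsdhl (-1.62), Sc5d (-1.64), Dhcr7 (-1.33), Hsd17b7 (-1.13), Ebp (-0.56) and Tm7sf2 (-0.50), the demethylation, reduction and desaturation steps, made up the rest, with the smallest falls at Pmvk and Tm7sf2. The per-library values of Tm7sf2 do not give the mean in the authors' deposited table, which has it at -1.04. In cHET against control cord, 0 of the 20 genes passed and their median was 0.00.

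Control genes of the pathway split by function. Of 13 tested genes of SREBP regulation and sterol uptake, 4 fell and 3 rose, with a median of -0.16. That is 53.8% called, against 25.9% of all tested genes. Insig1, itself an SREBP target that holds the SREBP complex in the endoplasmic reticulum, was 2060.3, 1983 and 1977 in control, 1784, 1838 and 1733 in cHET and 484, 437 and 493 in cKO libraries (-2.09, adjusted p = 1.1e-08). Stard4, a cytosolic sterol carrier, fell by 2.14, from 168, 177 and 209.9 to 43.8, 37.6 and 42.9, and Vldlr, a lipoprotein receptor, by 0.53. Insig1, Stard4 and Vldlr each lay below every control library. Srebf1, which encodes SREBP-1, the SREBP of fatty acid synthesis and an LXR target, moved the other way, from 408, 376 and 339 to 930.4, 829 and 903, a rise of 1.25 ± 0.08 (adjusted p = 9.3e-07). Npc2 and Lrp1, a lysosomal sterol carrier and an endocytic receptor for lipoproteins, rose by 0.63 and 0.72. Scap (-0.09), Mbtps1 (0.15), Mbtps2 (-0.30), Insig2 (-0.16) and Npc1 (-0.03) did not pass. Per-library values of Srebf2 were not analysed here, and in the authors' deposited table it was at -1.16 (q = 2.7e-73). The pattern TCACNCCAC was in 0 of 16 promoters of 10 genes of this list.

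**Figure D3:**
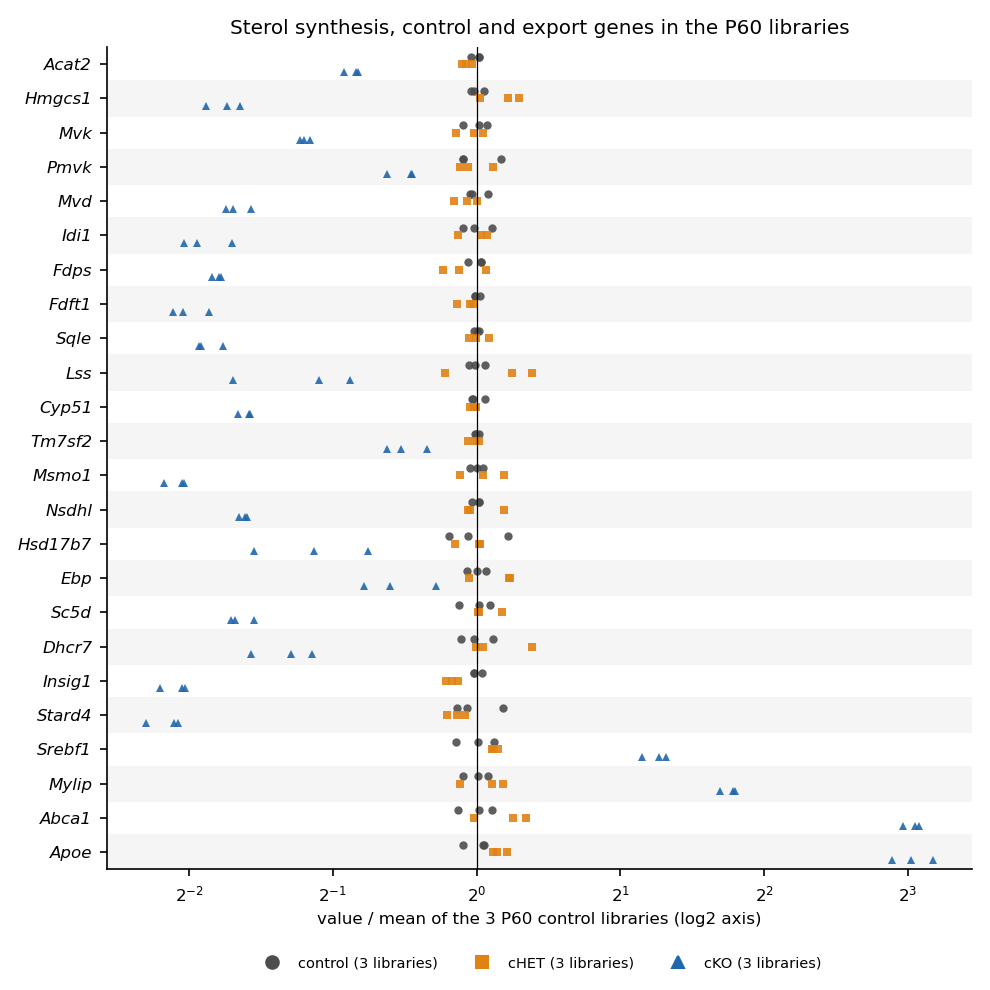
Value of each sterol gene in each P60 library divided by the mean of the 3 control libraries (horizontal log2 axis), with control, cHET and cKO libraries as circles, squares and triangles. The 3 cKO libraries lie left of every control library for all synthesis genes drawn and for Insig1 and Stard4, and right of them for Srebf1, Mylip, Abca1 and Apoe, while cHET libraries sit around 1.

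Transcripts of fatty acid synthesis fell less far. Of 16 tested genes 11 fell and 1 rose, median -0.47. Scd1, a stearoyl-CoA desaturase, went from 13796, 14289.6 and 14854 to 7122, 7128 and 8198 (-0.94, adjusted p = 1.0e-05), and Scd2, the abundant desaturase of the cord, from 72244, 76592 and 76469 to 47112, 49648 and 51152 (-0.61). Neither gene overlapped between cKO and control. Acss2, which makes acetyl-CoA from acetate, fell by 0.86, Acaca, acetyl-CoA carboxylase, by 0.64, Acly, ATP citrate lyase, by 0.54, Fasn, fatty acid synthase, by 0.49, and the elongase gene Elovl6 by 0.55. Fads2, a desaturase of polyunsaturated fatty acids, was the member that rose (0.38, adjusted p = 0.0012). Among 12 genes of myelin sphingolipid and galactolipid synthesis 3 fell and 2 rose, or 41.7% called against 25.9% of all tested genes. The rises were 1 without cKO 2, cKO 3, control 1 or control 3. Fa2h, which hydroxylates the fatty acids of myelin galactolipids, went from 2966, 3219 and 3204 to 1121, 1286 and 1303, and fell by 1.34 ± 0.07. Ugt8a, which adds the galactose, fell by 0.62 and Aspa by 0.63, whereas Galc, which degrades galactosylceramide, rose by 0.52.

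Genes of sterol export and lipid handling rose. In the list of cholesterol efflux and LXR genes 18 were tested, of which 10 rose and 2 fell, with a median of 0.56. The falls became 1 in the fit of the 2 groups alone and without cKO 1, cKO 3 or any 1 control. Apoe (chromosome 7, 19696109 to 19699188, minus strand), the main lipid carrier of the nervous system, was 16855, 18599 and 18522 in control, 19826, 20781 and 19424 in cHET and 162086, 145963 and 133221 in cKO libraries. That is a rise of 3.03 ± 0.08 (adjusted p = 5.9e-09), or 8.18-fold of the means, and Apoe alone went from 0.140% ± 0.0096 of all values in control cord to 1.08% ± 0.0863 in cKO (SD, n = 3; exact permutation test, 2-sided, p = 0.1, the smallest possible). Abca1, the cholesterol exporter that loads apolipoproteins, rose as far, from 617, 524 and 579.7 to 4743, 4832 and 4488 (3.03, adjusted p = 1.4e-08). Mylip, a ubiquitin ligase that degrades lipoprotein receptors, went from 145, 164 and 156 to 532, 500.2 and 538 and rose by 1.75. Apoc1, a small exchangeable apolipoprotein, rose from 15, 8.74 and 8.77 to 1002, 862 and 606 (6.198), with cHET libraries at 16.2, 20.5 and 38.2. Ch25h, which makes 25-hydroxycholesterol, rose by 3.68, Abcg1, another exporter, by 0.66 and Soat1, which esterifies cholesterol, by 0.59. Cyp27a1, a mitochondrial sterol hydroxylase, fell by 1.41. The receptor genes Nr1h2 and Nr1h3, which encode the LXR proteins, were at 0.07 and 0.54 and did not pass.

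Of 13 tested lipid droplet genes 7 rose and 1 fell, or 61.5% called against 25.9% of all tested genes. Lpl, lipoprotein lipase, went from 244, 216 and 201 to 1526, 1426 and 1204 (2.65, adjusted p = 3.2e-07), and Plin2, a coat protein of droplets, from 98.9, 111 and 135 to 330.0, 324 and 305 (1.48). Neither group pair overlapped. Plin4, another coat protein, was 159, 204 and 343 in control, 723, 1114 and 397 in cHET and 993, 1070.3 and 1189.5 in cKO libraries. Here the cHET libraries lay above the controls as well, although cHET against control did not pass (1.61, adjusted p = 0.59). Lipa, lysosomal acid lipase, and Dgat2, which makes triglyceride, rose by 0.95 and 1.01, and Lipe, hormone-sensitive lipase, fell by 0.70.

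Myelin genes fell in part. In the list for myelin and mature oligodendrocytes 21 of 30 tested genes fell and 5 rose, median -0.68. Several abundant myelin mRNAs changed modestly. Mbp, myelin basic protein, was 271641, 307582 and 290074 in controls and 206158, 235637 and 240389 in cKO libraries (-0.35, adjusted p = 0.029). Mag (-0.75), an adhesion protein next to the axon, Mog (-0.47), of the outer sheath, and Mobp (-0.26) passed too. In cHET libraries Mbp was 359003, 390401 and 327859, above every control library, though that contrast did not pass (0.31, adjusted p = 0.85).

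Other genes of mature oligodendrocytes fell much further. Anln (chromosome 9, 22332012 to 22389188, minus strand), anillin, which binds septins and actin in myelin, was 416, 467 and 505 in control, 448, 602 and 421 in cHET and 27.8, 29.6 and 34.1 in cKO libraries, and fell by 3.90 ± 0.14 (adjusted p = 2.7e-08). Hapln2, a link protein of the node of Ranvier, went from 1353, 1455 and 1409 to 168, 168 and 217 (-2.94, adjusted p = 2.9e-08). In both genes the cKO libraries lay far below every control, and separation of the groups was a condition for naming them among the largest falls. Gjb1, connexin 32, which couples oligodendrocytes, went from 1622, 1664 and 1685 to 269, 340.0 and 392, and fell by 2.33. Ermn, ermin, fell by 1.601, Car2, carbonic anhydrase, by 1.56, from 2879, 3122 and 2983 to 923, 1063 and 1063, Qdpr, which recycles tetrahydrobiopterin, by 1.54, and Ppp1r14a by 1.40. The transcription factor gene Myrf, the switch of myelin gene expression, was at -0.22 and did not pass (adjusted p = 0.081), and Mal was at 0.00. The 5 list members that rose were Opalin, a membrane glycoprotein of oligodendrocytes, from 846, 986 and 855 to 2165, 2065 and 2351 (1.29, adjusted p = 4.6e-05), Cldn11, the claudin of myelin tight junctions, by 1.11, Tspan2, a tetraspanin, by 1.18, Nfasc, neurofascin, by 0.48, and Ptgds.

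Klk6 (chromosome 7, 43824499 to 43832030, plus strand), a secreted serine protease of oligodendrocytes, was 2911, 3397 and 3375 in controls and 146, 238 and 299 in cKO libraries, and fell by 3.88 ± 0.20 (adjusted p = 2.2e-07). Serpinb1a, an inhibitor of neutrophil proteases, went from 297, 351 and 366 to 18.7, 22.1 and 25.6 (-3.91). The lowest change of all genes that the naming rule admits was that of Nkx2-9 (chromosome 12, 56611389 to 56613284, minus strand), a homeobox transcription factor gene. It was 143, 111 and 123 in control, 164, 135 and 117 in cHET and 1.17, 1.07 and 1.37 in cKO libraries, a log2 change of -6.21 ± 0.20 (adjusted p = 1.9e-08). The cKO values were near the bottom of the scale, where the added 0.5 sets the size of the change. Pdlim1 (-3.85), a PDZ-LIM protein, Myoc (-2.76), myocilin, Cdkn1c (-2.63), an inhibitor of the cell cycle, Chdh (-2.60), choline dehydrogenase, and Jph1 (-2.53), a junctophilin, were among the 15 largest falls, together with Tex52 (-3.85), Plac9a (-3.87), Fam205a1 (-2.82) and the Ly6 family genes Ly6g6f (-2.998) and Ly6g6e (-2.80). Chdh differs in one respect, since its cHET libraries, at 115, 105 and 91.4, were also below its controls, at 177, 228 and 141, with cKO at 29.2, 23.1 and 36.8, although cHET against control did not pass (-0.79, adjusted p = 0.65). Plac9a was 35, 65.1 and 70.4 in controls and 39.4, 36 and 5.64 in cHET libraries, so that cHET 3 lay among the cKO libraries, at 3.53, 5.79 and 1.57. Serpinb1a, Plac9a, Fam205a1 and the Ly6 genes have close relatives that can share reads, and their values are uncertain to that extent.

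Genes of earlier stages of the lineage rose. In the list for newly formed oligodendrocytes 7 of 11 tested genes rose and 1 fell, median 1.03. That is 72.7% called, against 25.9% of all tested genes. The falls were 2 under quantile normalization, array weights, the fit of the 2 groups alone or without cHET 3. Gpr17, a receptor of differentiating oligodendrocytes, was 1419, 1417 and 1403 in control, 1474, 1417 and 1775 in cHET and 6197, 6414 and 5791 in cKO libraries, a rise of 2.12 ± 0.08 (adjusted p = 3.3e-08). Rras2, a small GTPase, rose by 1.97, Itpr2, a calcium release channel, by 1.04, Bmp4, a growth factor, by 1.40, and Tcf7l2, a transcription factor of differentiation, by 1.03. Bcas1 fell (-0.40, adjusted p = 7.3e-04), opposite to its direction in cHET cord, and Enpp6 was at -0.29 (adjusted p = 0.078). Of 13 tested precursor genes 11 rose and 0 fell, median 0.66, or 84.6% called against 25.9% of all tested genes. Cspg4, the NG2 proteoglycan, which pericytes also make, went from 526, 567 and 499 to 1354, 1459 and 1195 (1.33, adjusted p = 1.1e-06). Vcan, versican, rose by 1.601, Neu4 by 0.84, Pdgfra, the growth factor receptor of precursors, by 0.53, and the lineage transcription factor genes Olig1 and Sox10 by 0.66 and 0.76. Of 13 proliferation genes 8 rose and 0 fell, median 1.10: Mki67 went from 19.4, 29.7 and 32.1 to 114, 196 and 126 and Top2a, a topoisomerase of dividing cells, from 8.5, 16.1 and 7.62 to 43.5, 56.7 and 47.5, without overlap.

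**Figure D4:**
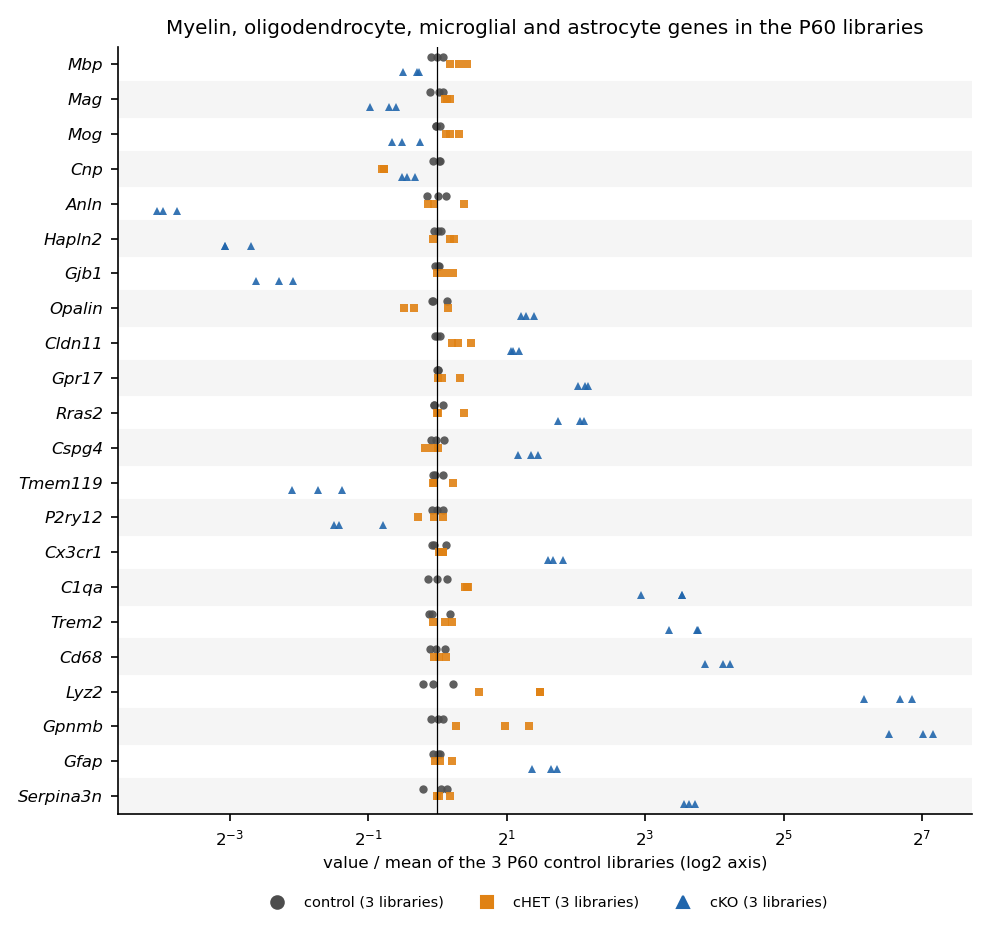
Value in each P60 library divided by the mean of the 3 control libraries (horizontal log2 axis) for genes of myelin, the oligodendrocyte lineage, microglia and astrocytes, with circles for control, squares for cHET and triangles for cKO libraries. Anln, Hapln2, Gjb1, Tmem119 and P2ry12 lie to the left in cKO and Opalin, Gpr17, Lyz2, Gpnmb and Serpina3n to the right, and Cnp is the gene with all 3 cHET libraries farthest left.

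Microglial genes showed the largest rises. Of 25 tested genes of disease-associated microglia 24 rose and 1 fell, median 2.65. Cst7, a cystatin that inhibits lysosomal proteases, had the highest change that the naming rule admits (7.72 ± 0.38, adjusted p = 1.5e-07), from 2.67, 1.09 and 3.99 in controls and 8.08, 14.4 and 13.3 in cHET to 576, 804 and 457 in cKO libraries. Gpnmb (chromosome 6, 49036546 to 49070929, plus strand), a glycoprotein of lipid-laden phagocytes, went from 32.2, 29.8 and 33.6 to 4131, 4555 and 2923 (6.88, adjusted p = 2.1e-08), and Lyz2, lysozyme, from 73.9, 99.3 and 81.7 to 9832, 8721 and 6051 (6.57). Separation of cKO and control libraries was a condition for naming each of these 3 genes. The lowest cKO library exceeded the highest control library many-fold in each. Itgax, an integrin subunit, and Clec7a, a receptor for glucans, rose by 6.803 and 6.42, to 334, 327 and 286 and to 1051, 826 and 717. Trem2, the lipid receptor of the microglial response to myelin, went from 115, 143 and 119.6 to 1691, 1707 and 1281, a rise of 3.62 ± 0.13 (adjusted p = 2.6e-08) or 12.4-fold, and its adaptor Tyrobp rose by 3.43. Cd68, a lysosomal membrane protein of phagocytes, went from 99.4, 109 and 93.8 to 1761, 1884 and 1473 (4.07). The member that fell was Fth1, the ferritin heavy chain, which stores iron and which oligodendrocytes also express: it went from 79170.4, 81849 and 84519.7 to 31259, 29954 and 30054, and fell by 1.43 ± 0.10 (adjusted p = 1.6e-06).

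Homeostatic microglial genes divided. Of 20 tested, 14 rose and 5 fell, median 1.55. Tmem119, a marker of resident microglia, went from 162, 175 and 159 to 50.3, 63.6 and 38.5 (-1.72, adjusted p = 2.6e-05), and P2ry12, the purinergic receptor of resting microglia, from 662, 707 and 632 to 248, 386 and 238 (-1.23, adjusted p = 2.3e-04). Slc2a5, a fructose transporter, Siglech, a lectin, and Sall1, a transcription factor, also fell, by 1.42, 1.03 and 0.34. Other members rose in the same libraries: Cx3cr1, the fractalkine receptor, from 840.0, 941 and 819 to 3036, 2769 and 2634 (1.70), Csf1r, the receptor on which microglia depend, by 1.48, Aif1 by 2.36 and Fcrls by 2.98. Among 15 complement genes 13 rose and 0 fell, median 2.21, with C1qa, C1qb and C1qc, the chains of C1q, up by 3.34, 3.07 and 3.08, C3 by 2.48, and C3ar1, the receptor of its fragment, by 4.25. C1qa was 483, 533 and 440.4 in control, 637, 655 and 660.3 in cHET and 5640.2, 5612 and 3715 in cKO libraries, and cKO 3 was the lowest of the cKO group here, as it was for Lyz2, Gpnmb, Trem2 and Cd68. Of 14 Fc and phagocytic receptors 11 rose and 0 fell, and those that rose include Fcgr2b (5.14), Fcgr3 (2.84) and Cd14 (2.95). The falls were 1 under array weights or quantile normalization, without cHET 1 or cKO 2, and in the authors' test. Lysosomal genes rose for 22 of 24 members, median 1.34: Ctss, a protease of antigen-presenting cells, went from 1056, 1156 and 766 to 8679, 8402 and 6228, Ctsz rose by 2.46 and Ctsd by 2.25, while Tfeb (-0.32) did not pass.

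The other rises among the 15 largest were in genes of immune cells and of matrix. Siglec1, a sialic acid receptor of macrophages, went from 7.88, 5.9 and 6.16 to 290.4, 307 and 301, Cd48, a surface protein of leukocytes, from 5.4, 5.67 and 4.32 to 218, 209 and 174, and Gpr65, a proton-sensing receptor, from 11.6, 4.37 and 4.98 to 205, 183 and 158. Cybb, the NADPH oxidase subunit of phagocytes, rose by 4.62, the interferon-inducible gene Ifi207 by 5.67 and Pdcd1, the PD-1 receptor, by 5.05. Ccn5, a matricellular protein also called Wisp2, rose by 5.99 ± 0.53, from 2.81, 5.59 and 6.3 to 299, 451 and 259. Ptprc, CD45, which microglia also carry, Ms4a7 and Itgal were the 3 of 9 tested peripheral leukocyte genes that rose. That is 33.3% called, near the 25.9% of all tested genes, and the median change of the list was only 0.14. The mean log2 level over the 9 genes was 3.03 to 3.27 in control and 4.21 to 4.46 in cKO libraries. Defining lymphocyte and monocyte genes stayed low in every library: Cd3e was 1.5, 6.02 and 6.52 in controls and 7.01, 3.63 and 3.93 in cKO, Cd79a 2.67, 5.46 and 5.98 and 2.01, 4.15 and 4.31, and Ccr2 4.2, 4.06 and 3.66 and 3.53, 3.73 and 6.48, all overlapping.

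Antigen presentation genes rose for 14 of 16 members, median 1.41. Cd74, the invariant chain of MHC class II, went from 34, 33.1 and 12.3 to 718, 637 and 604 (4.73, adjusted p = 1.2e-06), and the class II genes H2-Aa and H2-Ab1 rose by 3.94 and 3.82. Class I moved less, with H2-K1 and H2-D1, which share much sequence, at 1.39 and 1.27 and B2m, their light chain, at 1.66. Of 23 interferon response genes 5 rose and 0 fell, with a median of 0.59, so that 21.7% were called, near the 25.9% of all tested genes, whereas in P21 cKO against control cord, where 28.5% of all tested genes were called, 23 of 23 rose with a median of 1.501. Those 5 were Bst2 (1.87), Lgals3bp (2.03), Oas1a (2.23), Mx1 (1.12) and Cxcl10 (2.57). Ifit3, an antiviral effector, was 212, 263 and 196 in controls, 389.6, 307 and 339.9 in cKO and 222, 277 and 752 in cHET libraries. The third cHET library was the highest of all, as it was for Cxcl10 and Ifit1, and it widened the spread that the 3 groups share. Without cHET 3, or in the fit of the 2 groups alone, 8 of the 23 genes rose. Among those with a mean of at least 50 only 1 rose. Under quantile normalization, without cKO 1 or in the authors' test 1 fell. A pair of GAAA with 2 bases between them, a pattern of the interferon response element type, lay on either strand in 8 of 17 promoters of 15 genes of this list (47.1%) and in 3.44% of all 32851 promoters. That of Cxcl10, a chemokine, at chr5:92348840-92349139 on the minus strand, holds it 213 bases before the start (capitals; same window and source as above).
Cxcl10: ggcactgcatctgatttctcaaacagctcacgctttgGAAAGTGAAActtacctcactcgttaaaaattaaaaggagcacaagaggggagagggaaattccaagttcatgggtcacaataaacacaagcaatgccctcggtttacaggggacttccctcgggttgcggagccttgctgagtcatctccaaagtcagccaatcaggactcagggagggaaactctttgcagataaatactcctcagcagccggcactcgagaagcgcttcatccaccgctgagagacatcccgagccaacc
Cxcl10 was 14.3, 1.94 and 2.28 in control, 12.4, 14.4 and 105 in cHET and 31.6, 29.7 and 21 in cKO libraries and passed narrowly (adjusted p = 0.043). Of 11 tested chemokines 6 rose and 0 fell, including Ccl3 (4.17), Ccl6 (3.72) and Cxcl16 (2.92).

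Astrocyte genes rose mainly in the reactive list. Of 26 reactive astrocyte genes 23 rose and 0 fell, median 1.84, against 5 up and 2 down of 16 general astrocyte genes. Gfap, the intermediate filament of astrocytes, went from 32059.6, 34267 and 33723 to 103933, 110566 and 86376 (1.58, adjusted p = 7.6e-07), or 3.01-fold, and Vim, vimentin, from 1050.4, 1335 and 1083 to 10644, 11957 and 7973 (3.13). Serpina3n, a protease inhibitor, rose by 3.65 ± 0.09 (adjusted p = 5.9e-09), from 999, 1265 and 1191 to 14324, 15186 and 13604. No cKO library overlapped a control in these 3 genes. Osmr, the oncostatin M receptor, rose by 2.41, Timp1 by 2.61, Cd44 by 1.93, and C3 is counted here as well as with complement. Lcn2, lipocalin 2, rose by 0.95, but its cHET libraries, at 50.6, 48.3 and 40.5, were close to those of cKO, at 48.5, 53 and 51.6, with controls at 32.9, 22.4 and 24.2. Aqp4, the water channel, Sox9 and Slc1a3, a glutamate transporter, rose by 0.88, 0.99 and 0.75, and Glul, glutamine synthetase, which oligodendrocytes of the cord also express, fell by 0.73.

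Stress and death genes changed in part. The shares called in these lists ran from 47.6% (integrated stress response and serine synthesis) to 62.5% (p53 targets), against 25.9% of all tested genes. Of 21 genes of the integrated stress response and serine synthesis 7 rose and 3 fell, median 0.16, and 4 rose after quantile normalization, without cKO 1 or without control 3. Atf3 went from 57.4, 50.2 and 48.1 to 329, 349 and 405 (2.78) and Nupr1, a stress-induced nuclear protein, from 21.6, 22.3 and 25.5 to 139.5, 101 and 168 (2.50). Gdf15, a stress hormone, was listed at 0 in all 3 controls and at 31.1, 24.4 and 23.1 in cKO libraries, values that do not give the mean in the authors' deposited table. The core targets Ddit3 (0.16), Chac1 (-0.07), Asns (-0.15) and Sesn2 (0.02) did not pass, and the serine synthesis genes Phgdh and Psat1 fell by 0.36 and 0.48. Of 12 chaperone genes of the endoplasmic reticulum 6 rose, median 0.24, with Edem1 at 1.16 and Hspa5, BiP, at 0.34. Without cKO 1 only 2 of these 12 passed, and without control 2 only 3. Necroptosis and pyroptosis genes rose for 6 of 11 members, including Casp8 (1.35), Pycard (2.20) and Tnfrsf1a (1.07), and p53 targets for 9 of 16, including Eda2r (2.30), Ccng1 (0.90) and Phlda3 (0.66). Of the p53 targets 1 fell, and 0 fell in 10 alternatives, among them the fit of the 2 groups alone, the authors' test and 7 fits without 1 library each. Immediate early genes, which also respond to handling, rose for 8 of 13 members, with Fos at 79.3, 93.9 and 111 in controls and 262, 235 and 253 in cKO libraries. Their part in the other results was not tested.

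Neuronal genes were lower by small amounts. Of 20 neuronal genes 10 fell and 0 rose, median -0.20, or 50% called against 25.9% of all tested genes. Only 5 or 6 passed when cKO 2, control 2 or control 3 was left out. Glra1, a glycine receptor, went from 3819.5, 4394 and 4055 to 2538, 2521 and 3156 (-0.58) and Gad1, which makes GABA, from 2037, 1657 and 2249 to 1405, 1269.8 and 1081 (-0.66). Snap25 (0.04), Nefm (0.05) and Stmn2 (-0.02), a well-known splicing target of TDP-43 in human neurons, did not pass. Of 7 tested motor neuron genes 1 passed, or 14.3%, below the 25.9% of all tested genes. It was Ache, acetylcholinesterase, which fell (-0.32). Slc18a3, the vesicular acetylcholine transporter, was 1125, 1325 and 1169.7 in controls and 1099.5, 1022 and 1153 in cKO libraries and did not pass. Among 25 tested genes linked to the 2 human diseases named above 5 rose and 2 fell, or 28% called, near the 25.9% of all tested genes. The falls were 4 under median-of-ratios scaling or quantile normalization, and 1 without cKO 3, control 1 or control 3. Grn, progranulin, a lysosomal protein abundant in microglia, went from 294, 325 and 258 to 1373, 1575 and 1148 (2.22, adjusted p = 2.5e-07), Pfn1 and Taf15 rose by 0.51 and 0.47, and Unc13a fell by 0.41.

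Markers of other cells of the cord moved in both directions. Of 11 endothelial genes 1 rose and 2 fell, or 27.3% called, near the 25.9% of all tested genes, and 3 rose without cHET 3 or without cKO 1. Of 10 pericyte and smooth muscle genes 4 rose and 1 fell (50% called). Of 12 ependymal genes 3 rose and 1 fell, or 33.3% called, against 25.9% of all tested genes. The ependymal falls were 0 without cKO 2 or without control 2. Of 12 Schwann cell genes 5 rose and 1 fell, with Cdh19 at 2.05 and Sox10, which oligodendrocytes share, at 0.76. In the meningeal fibroblast list 2 of 13 rose, or 15.4% called, below the 25.9% of all tested genes. They were Pdgfra and Ptgds, both also genes of the oligodendrocyte lineage. Ptgds, prostaglandin D synthase, went from 7148, 8260.1 and 8047 to 60743, 38089 and 50588 (2.65). Erythrocyte genes were lower for 4 of 6 members, but 0 passed without control 1, 1 without cKO 1 or cKO 3, and 2 without cHET 2: Hba-a1 was 17457, 4693 and 3793 in controls and 2429, 3451 and 1530.0 in cKO libraries, so control 1 stood apart. Hba-a1 and Hba-a2 are near-identical, and reads can be split between them. All 13 mitochondrial genes had a positive change, with a median of 0.58 against 0.00 over all tested genes. Of these 1 passed, or 7.69%, below the 25.9% of all tested genes. It was mt-Nd3, which rose (3.13, adjusted p = 0.0045), at 688, 103 and 361 in control, 1163, 918 and 2701 in cHET and 3189, 4022 and 1338 in cKO libraries. The count of 1 became 9 without control 1, 4 without cHET 3, 2 without cKO 3 and 7 with array weights. The share of mitochondrial RNA varied among replicates as given above, and its part in other results was not tested.

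**Figure D5:**
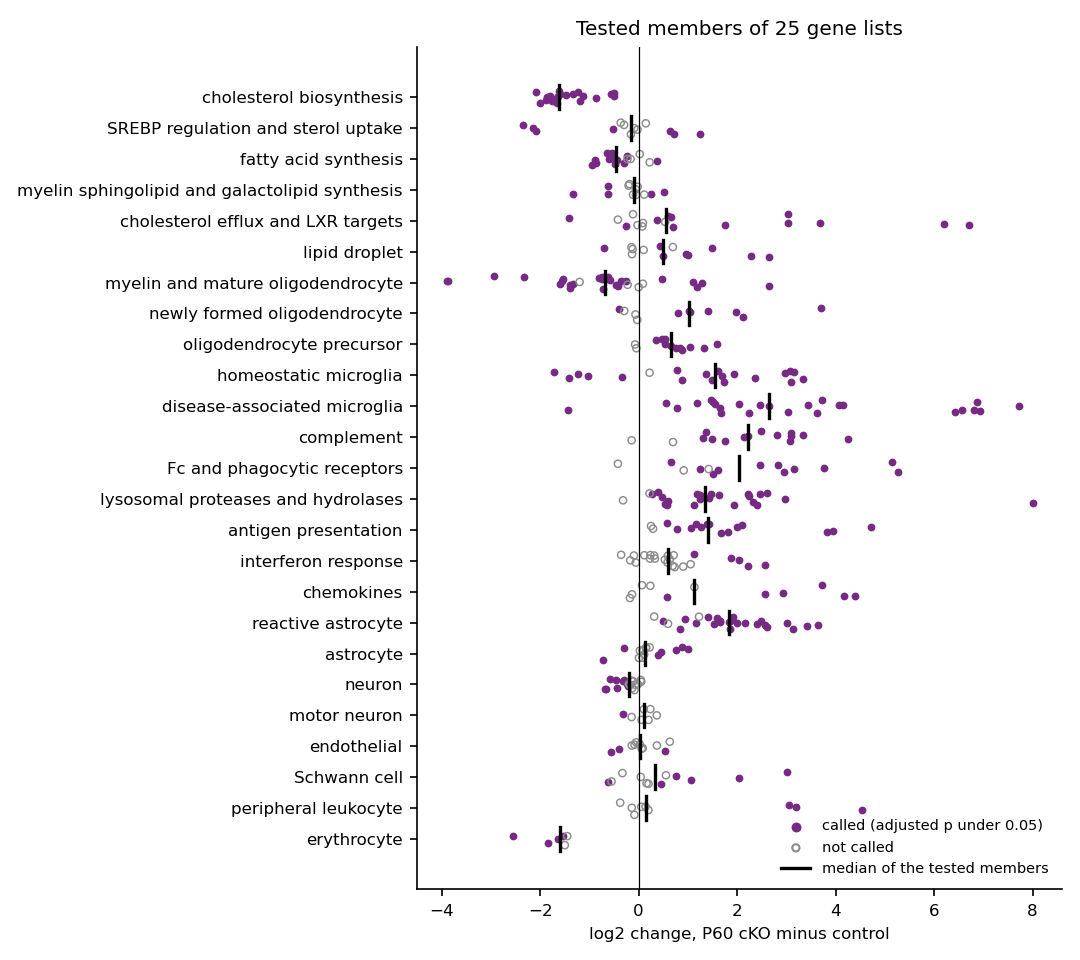
Log2 change of P60 cKO minus control cord for the tested members of 25 gene lists, 1 point per gene, filled where the gene passed an adjusted p of 0.05, with a bar at each list's median. Cholesterol biosynthesis lies wholly below 0 with a median of -1.61, and disease-associated microglia, complement and reactive astrocyte genes lie mostly above 0 with medians of 2.65, 2.21 and 1.84.

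The same comparison at P21, which shares no library with this one and balances the labelled sexes, called 5124 of 17989 genes (28.5%). Of 16570 genes tested at both ages, 4345 were called at P60 and 5040 at P21, and 2779 at both, which is 64.0% of the P60 and 55.1% of the P21 calls, 2739 of them in the same direction. Cholesterol biosynthesis genes fell for 19 of 20 members at P21, with a median of -0.75, and at P60 the falls were larger. The age difference, tested as an interaction in all 21 libraries, passed for 717 of 18252 genes (3.93%), and age there coincides with the library kit. It passed for Anln (-3.90 at P60 and -1.43 at P21, adjusted p of the difference = 1.8e-08), Insig1 (-2.09 and -0.60, 3.9e-06), Fdft1 (-2.002 and -0.54, 1.7e-07) and Apoe (3.03 and 1.79, 1.3e-06). For Gfap (1.58 and 1.496, 0.8) and Trem2 (3.62 and 3.47, 0.81) the difference did not pass. Gpr17 rose at both ages but more at P60 (2.12 against 0.49, adjusted p of the difference = 4.1e-06), and Tmem119 was at -0.21 at P21 against -1.72 at P60 (0.0012). Ptgds rose more at P21, by 4.34 against 2.65 at P60 (0.029).

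In the comparison with cHET cord, whose mice share the labelled sex, Cnp-Cre and nearly the age of the cKO mice, the following genes are examples chosen with both values known. Sqle was at -1.88 against cHET and -1.87 against control, Apoe at 2.87 and 3.03, Gpnmb at 6.03 and 6.88, Anln at -3.97 and -3.90, and Gfap at 1.51 and 1.58. All 20 cholesterol biosynthesis genes fell against cHET too, with a median of -1.62. The myelin list had 23 falls and 5 rises there, with a median of -0.74. Other lists differed more. The chemokine median was 0.08 against cHET (5 rose) and 1.13 against control, that of the interferon response genes 0.07 (3 rose) and 0.59, and that of the erythrocyte genes -0.35 (1 fell) and -1.59.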

How the data were processed

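RNA of flash frozen spinal cord was sequenced from 21 mice, with a TruSeq kit at P21 and the NEXTflex Rapid Directional kit at P60 per the labels. The submitters' processing notes name kallisto 0.43.0 and sleuth 0.28.1, and how each was set is not given in the sources used here. The deposited per-library values are a signal, normalized scaled reads per base and gene, normalized by the authors apart at each age. The authors' deposited table gives natural log effects with their SE, converted here to log2 by division by the natural log of 2, and q-values as p-values adjusted by the authors. Read depth is unknown, so no counting interval is given.

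Values were taken as log2(value + 0.5) and fitted with limma 3.58.1 (trend, R 4.3.3) in the 9 P60 libraries, with genotype as the factor and Benjamini-Hochberg adjustment over all genes that reached 5 in at least 3 libraries. Changes are cKO minus control on that scale, which understates changes of low genes, and ± is the SE unless SD is named. The P21 fit added labelled sex, and the age difference used 6 groups. On simulated data with 200 changed genes among 16833, the P60 fit recovered 42%, 66% and 94% of changes of 0.5, 1 and 2 on the log2 scale. The simulation used normal errors and changed a far smaller share of genes than the 25.9% called in the data. Its rates therefore do not give the sensitivity of this comparison.

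Named genes were Tardbp, Cnp, the 15 highest and 15 lowest changes (adjusted p under 0.05, a mean of 20 or more in the group with the higher values, no overlap between groups, per-library values that give the mean of the authors' table within 0.001 on the natural log scale, no clone-type symbol, not in the sex-linked list) and up to 4 called members with the smallest p of each of 37 gene lists. Lists with fewer than 2 called members, the sex-linked list among them, named no gene in this way. Other list members serve as examples chosen with their values known. The lists hold 578 genes, of which 530 were tested. The comparison and the lists were chosen with earlier results of these data known. Gene positions are those of GENCODE M21 on GRCm38. Alternatives were other scalings, pseudocounts, filters and weights, the 2 groups alone, the authors' own test and leaving out each library. Some results are not reported here.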

Additional observations from a re-analysis of the deposited data

Results flagged for a closer look

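The change of cKO against control cord was larger at P60 than at P21 for 20 of 38 genes examined, by limma's interaction test over all 21 libraries with Benjamini-Hochberg adjustment. Over all genes the difference passed in either direction for 717 of 18252 (3.93%). The 38 genes were picked for the size of their P60 change, which favours larger values at that age. Their count therefore cannot be compared with the share over all genes. Age coincides with the library kit and with the labelled sex of the controls, so that these cannot be told apart from age.

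Among the largest falls the difference passed for Pdlim1 (-3.85 at P60, -1.19 at P21, difference -2.65, adjusted p = 0.002), Anln (-3.90 at P60, -1.43 at P21, difference -2.48, adjusted p = 1.8e-08), Chdh (-2.60 at P60, -0.12 at P21, difference -2.47, adjusted p = 6.5e-04) and Serpinb1a (-3.91 at P60, -1.66 at P21, difference -2.25, adjusted p = 1.1e-06). The same held for Myoc (-2.76 at P60, -0.57 at P21, difference -2.18, adjusted p = 4.1e-07), Hapln2 (-2.94 at P60, -0.78 at P21, difference -2.16, adjusted p = 1.8e-09), Ly6g6e (-2.80 at P60, -0.84 at P21, difference -1.97, adjusted p = 0.026) and Nkx2-9 (-6.21 at P60, -4.30 at P21, difference -1.91, adjusted p = 9.1e-05). It held as well for Tex52 (-3.85 at P60, -2.15 at P21, difference -1.69, adjusted p = 2.2e-04), Jph1 (-2.53 at P60, -0.84 at P21, difference -1.69, adjusted p = 9.5e-06) and Fam205a1 (-2.82 at P60, -1.19 at P21, difference -1.64, adjusted p = 2.6e-04). Chdh was near 0 at P21, whereas Nkx2-9 had already fallen far at that age.

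Genes of sterol synthesis and uptake fell further at P60. Those of synthesis were Fdft1 (-2.002 at P60, -0.54 at P21, difference -1.46, adjusted p = 1.7e-07), Msmo1 (-2.09 at P60, -0.79 at P21, difference -1.29, adjusted p = 1.3e-05) and Sqle (-1.87 at P60, -0.84 at P21, difference -1.03, adjusted p = 2.2e-06). Those of regulation and uptake were Stard4 (-2.14 at P60, -0.62 at P21, difference -1.52, adjusted p = 2.8e-05) and Insig1 (-2.09 at P60, -0.60 at P21, difference -1.50, adjusted p = 3.9e-06). Srebf1 rose more at P60, as Srebf1 (1.25 at P60, 0.59 at P21, difference 0.65, adjusted p = 0.016).

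Of the immune and apolipoprotein genes that rose, the difference passed for Cst7 (7.72 at P60, 5.62 at P21, difference 2.10, adjusted p = 0.032), Cd74 (4.73 at P60, 2.24 at P21, difference 2.49, adjusted p = 0.0012) and Apoc1 (6.198 at P60, 3.09 at P21, difference 3.11, adjusted p = 2.6e-05).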

How the results depend on the processing

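No reversal occurred in any alternative run. Calls of cKO against control ranged from 3949 to 4845 over the other settings and from 3411 (without cKO 2 and also without control 3) to 4492 over fits that left out 1 library. cHET against control gave 1 to 4 calls when 1 library was left out. The other comparisons gave 3239 to 4176 calls (cKO against cHET, and up to 4500 after quantile normalization), 4094 to 5213 (P21 cKO against control), 7 to 10 (labelled sex at P21) and 559 to 789 (age difference) over the same kind of fits. Of the 151 named genes, 143 stayed on their side of the threshold in every alternative that gave them a value (130 genes with a mean of at least 50 and 147 in the authors' test), and 8 lost their call in at least 1, including Calr, Hspa5, Rarres2, Tmem212, Hba-a1, Hba-a2 and Hbb-bt. The mitochondrial share differed by 3.66 percentage points, and by 2.18 to 5.15 without 1 library. No paired analysis was possible because replicate numbers were given in accession order and pair no mice. With read depth unknown, changes of genes near 0 depend on the added 0.5.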

Other observations

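Some values in the P60 libraries fall outside the gene groups described above and were picked after they were seen. Nnt, which encodes the mitochondrial transhydrogenase, is listed under 2 gene models that moved in opposite directions. The first was 104, 89.5 and 85.1 in control, 200.3, 160.4 and 204 in cHET and 159, 208 and 243 in cKO libraries, a rise of 1.11 in cKO (limma, adjusted p = 4.5e-04). The second was 500.1, 472 and 539 in control, 183, 202 and 151 in cHET and 266, 193 and 105 in cKO libraries, a log2 change of -1.52 (adjusted p = 1.5e-03), but its per-library values do not give the mean in the authors' deposited table. Both Nnt models separated the controls from all 6 libraries with Cnp-Cre, although neither passed in cHET against control (1.01 and -1.50). The models overlap in the genome, so reads can be split between them.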
